A study of Mus musculus with 15 samples.

Results

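Long noncoding RNAs that host smaller RNAs or build nuclear structures were followed in primary astrocytes of mouse brain. The 35 genes were taken by symbol from the 25748 symbols of the counts files. They comprised 17 symbols made of Snhg and a number, 10 that start with Mir and end in hg, and 8 named ones (Malat1, Neat1, Gas5, Meg3, Rian, Mirg, Dleu2 and Kcnq1ot1). Snhg7os, in which letters follow the number, was not taken. By role, 18 are hosts of small nucleolar RNAs (snoRNAs), 11 are hosts of microRNAs (miRNAs), 2 belong to nuclear bodies and 4 are imprinted transcripts. Each gene was given a single role. Rian, whose span holds 11 snoRNAs, and the miRNA host Mirg were counted as imprinted, and the imprinted Snhg14 as a snoRNA host. The rule reads symbols alone. Of the 35 genes, 31 had enough counts to be tested and 4 did not.

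A host gene is transcribed and spliced like a messenger RNA, and the small RNA is cut from an intron or exon while the spliced remainder often codes for no protein. Intron-borne snoRNAs guide the methylation and pseudouridylation of ribosomal RNA, and many of their spliced hosts are known to be degraded by nonsense-mediated decay, the surveillance of messages with early stop codons. Malat1 gathers in nuclear speckles, stores of splicing factors, and Neat1 is the scaffold of paraspeckles, which hold RNA-binding proteins in the nucleus. Meg3, Rian and Mirg are expressed from the maternal copy of a single imprinted domain, and Kcnq1ot1 from the paternal copy of another.

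Polyadenylated RNA was sequenced in 15 libraries, 5 in each of 3 groups. The control group carries no agent in the labels. The group labelled SCI received 1 µg/mL lipopolysaccharide (LPS), a bacterial cell wall component that activates TLR4 signalling, for 6 to 8 h. The group labelled Rg1 received 80 µM of the ginseng saponin ginsenoside Rg1 for 12 h and then 1 µg/mL LPS for 6 to 8 h. No group with Rg1 and no LPS was analysed here, and the labels used here name no strain or age. Whether replicates stem from different cultures or mice is not in the labels used here, and the p-values below then reflect only the spread among these libraries, which may be technical.

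Library totals ranged from 34.2 to 41.8 M counts, and the 35 genes together took 0.0574 to 0.0803% of them. The astrocyte label was checked against markers. Gfap, the astrocyte filament protein, was at a normalised read count of 2211 to 4927 CPM (counts scaled to a common library size of 1 M) over all libraries, and of 10 astrocyte markers 6 were lower in SCI than in control. Markers of other cell types were counted as well, and a list sum can rest on a few genes. Fibroblast and pericyte markers, with Col1a1 the most abundant, summed to 1774 to 2422 CPM in control, 1956 to 2778 in SCI and 852 to 2688 in Rg1. Neuronal markers, with Stmn2 the most abundant, summed to 669 to 790, 534 to 689 and 484 to 699 CPM in the same order, and those of the oligodendrocyte lineage, led by Olig1, to 313 to 387, 332 to 375 and 321 to 401. Microglial and macrophage markers, led by Tmem119, summed to 46.1 to 97.2 CPM in control, 55.0 to 91.9 in SCI and 42.5 to 70.5 in Rg1. Endothelial markers, led by Cdh5, summed to 129 to 157 CPM in control, 164 to 190 in SCI and 90.6 to 107 in Rg1, with Pecam1 and Cldn5 at most at 0.506 and 0.0542. Ependymal markers, led by Foxj1, summed to 94.3 to 122, 57.2 to 99.9 and 87.8 to 140 CPM in that order. SCI replicate 4 and Rg1 replicates 1 and 4 stood apart from their groups in several members, and calls that changed when all 3 were left out are given both ways. In bulk RNA, fewer cells of a type and less RNA per cell cannot be told apart.

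The libraries carry host transcripts and not mature miRNAs, so the sequences below show what each host can encode and not what was measured. Mature sequences are those of RefSeq (GRCm38.p6), 5′ to 3′, and capitals mark the seed, bases 2 to 8, which pairs with targets. They are shown for the miRNA hosts that changed or stood apart in single libraries. Mir155hg (chr16:84713023-84715245) holds miR-155 at chr16:84714143-84714165, Dleu2 (chr14:61602836-61682373) holds miR-15a and miR-16, and Mir670hg (chr2:94160636-94265103) holds miR-129-2 and miR-670. Mir100hg (chr9:41376526-41615185) holds miR-100 at chr9:41531437-41531458 and a copy of miR-125b. Of Mir99ahg, RefSeq lists the span chr16:77329328-77558428, and miR-99a lies 40512 bases beyond its end at chr16:77598940-77598961, followed by let-7c at chr16:77599672-77599693 and the other copy of miR-125b. The Mir100hg copy of miR-125b lies at chr9:41581940-41581961. These loci and those of miR-9 (chr7:79505279-79505301) in Mir9-3hg and of miR-22 (chr11:75463772-75463793) in Mir22hg are on the plus strand. On the minus strand lie miR-15a (chr14:61632075-61632096), miR-16 (chr14:61631936-61631957), miR-670 (chr2:94261358-94261379) and miR-129 (chr2:94241419-94241439).
miR-155-5p: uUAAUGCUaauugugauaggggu
miR-100-5p: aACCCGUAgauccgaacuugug
miR-99a-5p: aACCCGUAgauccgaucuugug
miR-125b-5p: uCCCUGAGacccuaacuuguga
let-7c-5p: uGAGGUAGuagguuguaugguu
miR-15a-5p: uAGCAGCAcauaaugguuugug
miR-16-5p: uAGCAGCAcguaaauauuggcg
miR-670-5p: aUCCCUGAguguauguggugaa
miR-129-5p: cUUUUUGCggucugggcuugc
miR-9-5p: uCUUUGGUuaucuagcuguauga
miR-22-3p: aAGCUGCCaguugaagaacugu
Within this set, miR-100 and miR-99a share the seed ACCCGUA, and miR-15a and miR-16 share the seed AGCAGCA. Both copies of miR-125b give the same mature 5p sequence, so the Mir100hg and Mir99ahg loci carry related miRNAs.

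Many snoRNA hosts start, like ribosomal protein messages, with a C followed by a run of pyrimidines, the 5′ terminal oligopyrimidine (TOP) motif that ties translation to growth signals. Windows of 20 bases before to 25 bases from the annotated start were read from RefSeq (GRCm38.p6), and capitals mark pyrimidines that run on from the start base. RefSeq lists 2 starts of Gas5, and both are shown: the one at the beginning of its span (chr1:161034581-161034625, plus strand) does not hold the motif. Gas5 at its downstream start, Snhg7 and Snhg8 hold a C and then 4 bases that are each C or T at an annotated start. Starts are read on the gene's strand. Snhg1, Snhg5 and Snhg20 do not hold this at the start base, and their longest pyrimidine runs close to it are 9, 7 and 3 bases. Positions are chr1:161035146-161035190 (plus strand) for Gas5, chr2:26640220-26640264 (minus strand) for Snhg7, chr3:123508312-123508356 (minus strand) for Snhg8, chr19:8723467-8723511 (plus strand) for Snhg1, chr9:88522873-88522917 (minus strand) for Snhg5 and chr11:117076763-117076807 (plus strand) for Snhg20.
Gas5: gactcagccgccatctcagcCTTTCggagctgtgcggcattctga
Gas5, other annotated start: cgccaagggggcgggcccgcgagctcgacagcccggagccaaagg
Snhg7: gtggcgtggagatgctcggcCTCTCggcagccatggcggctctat
Snhg8: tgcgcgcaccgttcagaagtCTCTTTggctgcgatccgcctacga
Snhg1: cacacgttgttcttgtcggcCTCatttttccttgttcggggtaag
Snhg5: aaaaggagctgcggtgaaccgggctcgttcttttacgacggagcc
Snhg20: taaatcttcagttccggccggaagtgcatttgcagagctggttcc
A start of this form was present in 3 of the 16 snoRNA hosts with a sequence in the table, and in no other of the 30 members with one. It was present in 3.01% of the 27025 genes of the whole table and in 13 of 58 cytosolic ribosomal protein genes (22.4%). The match is to annotated starts and describes letters only.

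Normalised read counts are given as CPM of the library size scaled by TMM, the trimmed mean of M-values, and 5 values in a row are replicates 1 to 5. Differences are log2 fold changes ± SE from edgeR's quasi-likelihood test over all 15 libraries, with p-values adjusted by the Benjamini-Hochberg method over the 15362 genes tested, and a gene is called changed at an adjusted p under 0.05. SCI against control called 8 of the 31 members tested, 6 higher and 2 lower, where 23.7% of all genes tested were called (13.8% higher, 9.82% lower). Rg1 against SCI called 23 of 31, 18 higher and 5 lower, beside a background of 45.4% (22.2% higher, 23.2% lower). Rg1 against control called 17, 14 higher and 3 lower, beside 36.9% (18.8% higher, 18.1% lower). The median log2 fold change of the 31 members was 0.01, 0.42 and 0.40 in that order, and that of all genes tested -0.003, 0.028 and 0.011. Without SCI replicate 4 and Rg1 replicates 1 and 4, a setting added after seeing the data, 7, 20 and 17 members were called in the same order, and 12 of the 17 snoRNA hosts rose in Rg1 against SCI. Those 3 libraries were picked because they stood apart in member values, so adjusted p-values of this setting are no independent test. The comparisons share libraries, since each group serves in 2 of them, so their values are set side by side and not related to each other.

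**Figure D1:**
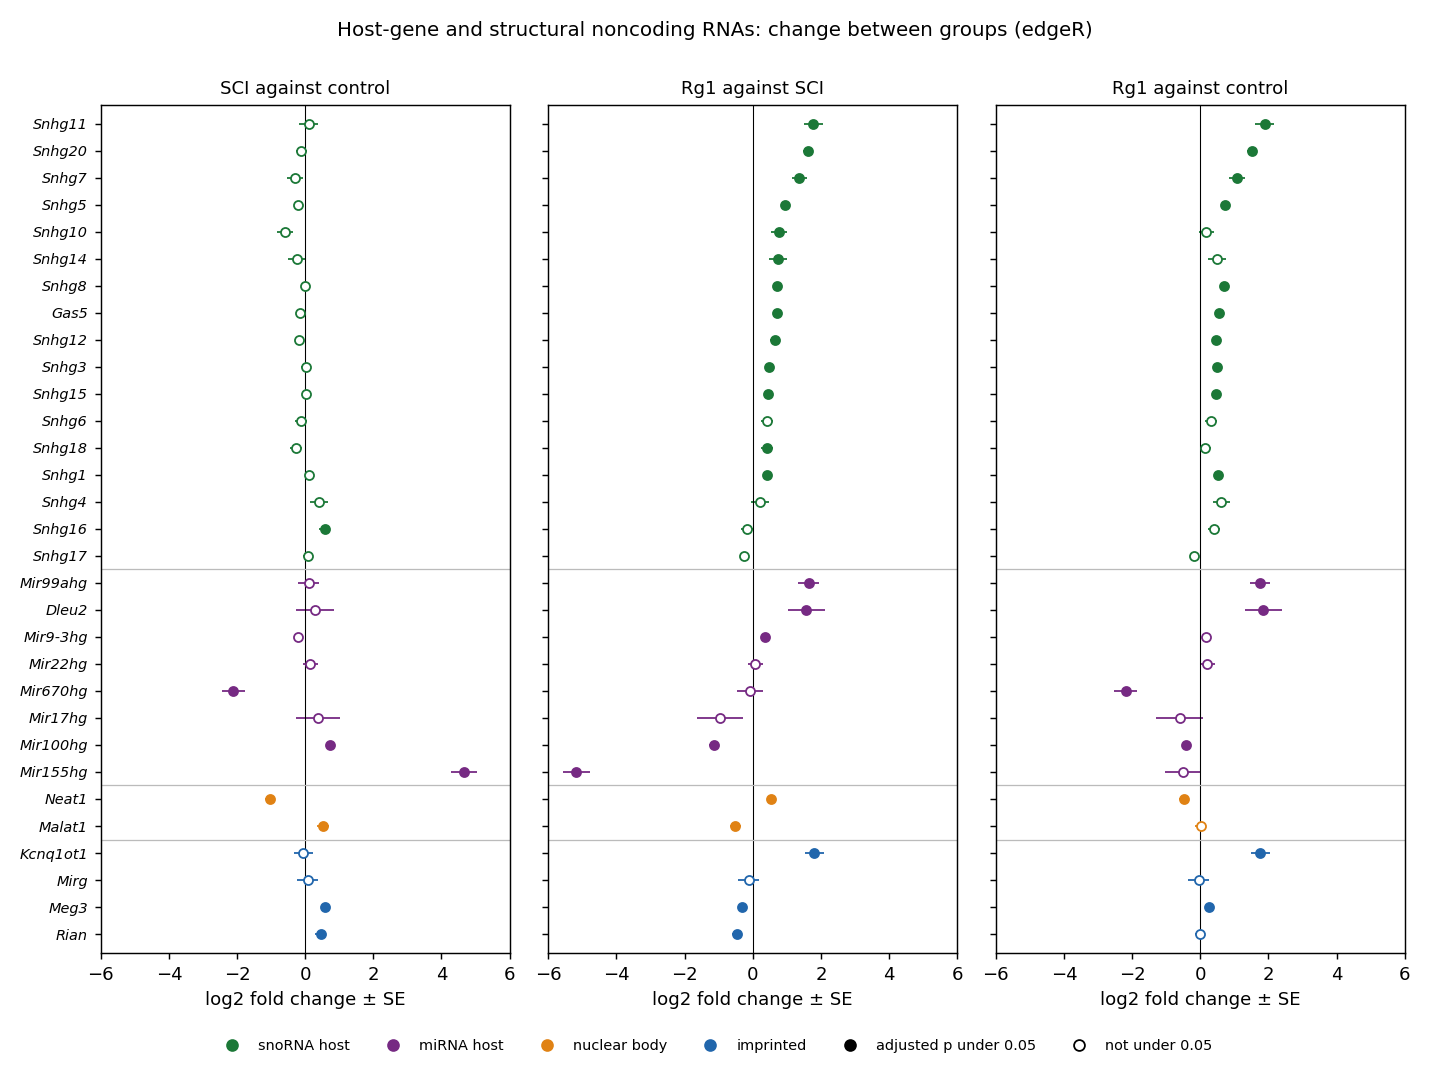
Log2 fold change ± SE of the 31 members tested in the 3 comparisons, coloured by role, filled where the adjusted p was under 0.05. The snoRNA hosts lie close to 0 in SCI against control and mostly above 0 in both comparisons of Rg1, while Mir155hg is at 4.66 in SCI against control and -5.18 in Rg1 against SCI.

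Counts by role were as follows. Among the 17 snoRNA hosts tested, 1 rose and none fell in SCI against control, and 13 rose and none fell in Rg1 against SCI. In the same 2 comparisons 2 and 3 of 8 miRNA hosts rose and 1 and 2 fell. Groups that did not overlap at all were found for 4 higher and 2 lower members in SCI against control, where 20.4% of all genes tested did not overlap (12.8% higher, 7.64% lower). In Rg1 against SCI they were found for 12 higher and 2 lower members, beside 27.5% (12.4% higher, 15.1% lower). In Rg1 against control they were found for 12 higher and 3 lower members, beside 26.2% (13.2% higher, 13.0% lower).

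Mir155hg, the host of the inflammatory miR-155 and a known NF-kB target, had the widest change of the members in SCI against control and in Rg1 against SCI. Control libraries held 0.0517, 0.0813, 0.134, 0.0585 and 0.252 CPM, SCI libraries 2.8, 3.9, 2.86, 3.02 and 2.35 and Rg1 libraries 0.169, 0.0496, 0.0989, 0.0532 and 0.0238. All SCI libraries lay above all others, and control and Rg1 overlapped. The log2 fold change was 4.66 ± 0.39 in SCI against control (adjusted p = 1.31e-07) and -5.18 ± 0.40 in Rg1 against SCI (adjusted p = 3.35e-08), and between Rg1 and control it was -0.52 ± 0.51 (adjusted p = 0.456). Depth sets the precision at the low end: the 5 control libraries held 21 counts and the 5 Rg1 libraries 16, against 542 in SCI. Microglia and macrophages also express this host, and 5 of their 10 markers were lower in Rg1 than in SCI, none higher, where 23.2% of all genes tested were lower. The 5 were Itgam, Csf1r, Ptprc, Tyrobp and Ctss, with log2 fold changes of -2.73, -2.18, -2.93, -1.42 and -2.08. None of the 10 passed the test between SCI and control. Their levels reached 58 CPM for Tmem119, 20.1 for Ctss, 19 for Cd68 and 12.7 for Csf1r, down to 0.769 for P2ry12. Their part in the Mir155hg values was not tested.

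Mir100hg, whose locus carries miR-100, let-7a-2 and a copy of miR-125b, was also raised in SCI. Its levels were 22.2, 21.8, 25.1, 24.1 and 25.8 CPM in control, 52, 38.5, 34.4, 39.4 and 34.1 in SCI and 15.6, 21.1, 18.8, 21.5 and 12.3 in Rg1. The 3 groups did not overlap, with SCI highest and Rg1 lowest. It rose by 0.74 ± 0.14 on the log2 scale in SCI against control (adjusted p = 0.00114), and the change in Rg1 against SCI was -1.15 ± 0.14 (adjusted p = 8.17e-06). Against control the Rg1 value was -0.41 ± 0.14 (adjusted p = 0.0315), a call that leaving out any of control replicates 3, 4 or 5 or Rg1 replicates 1 or 5 ended. It also ended without SCI replicate 4 and Rg1 replicates 1 and 4 together (-0.44, adjusted p = 0.0584).

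Mir99ahg, the host of the related miR-99a cluster, was raised in Rg1 and not in SCI by the test. Its control libraries were at 0.775, 1.03, 0.695, 0.644 and 0.476 CPM, those of SCI at 1.34, 0.352, 1.01, 0.621 and 0.601 and those of Rg1 at 1.98, 3.18, 2.18, 2.24 and 2.72. Control and SCI overlapped, and every Rg1 library lay above both. The log2 fold change was 0.11 ± 0.31 in SCI against control (adjusted p = 0.823) and 1.64 ± 0.30 in Rg1 against SCI (adjusted p = 0.000318). The Rg1 libraries were 3.38-fold above control.

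Mir670hg, in whose span RefSeq places miR-129-2 and miR-670, was the member that fell most in SCI. It was at 0.852, 1.06, 0.668, 0.82 and 1.07 CPM in control, at 0.188, 0.108, 0.154, 0.423 and 0.15 in SCI and at 0.121, 0.223, 0.148, 0.213 and 0.262 in Rg1. Both LPS-treated groups lay below every control library and overlapped each other. The change was -2.11 ± 0.34 in SCI against control (adjusted p = 0.00025) and -2.19 ± 0.34 in Rg1 against control (adjusted p = 0.000128). Between Rg1 and SCI the log2 fold change was -0.08 ± 0.38 (adjusted p = 0.888), and its sign rested on SCI replicate 4: without that library it was 0.36. The counts are few, 163 over the control libraries, 37 over SCI and 39 over Rg1.

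Mir9-3hg, a host of miR-9, which is known from neural progenitors and astrocyte precursors, rose in Rg1 against SCI by a small step. Control libraries held 29.1, 23.7, 29.4, 28.7 and 28.9 CPM, SCI 26.1, 20.8, 24.1, 25.1 and 25.3 and Rg1 35.9, 30.7, 29.9, 32.6 and 26.7. Rg1 lay above SCI in every library, by 0.36 ± 0.09 on the log2 scale (adjusted p = 0.00298). Its SCI against control value was -0.20 ± 0.09 (adjusted p = 0.1).

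Dleu2, the host of miR-15a and miR-16-1, was high in single libraries of both LPS-treated groups. It was at 0.697, 0.786, 0.641, 0.79 and 0.785 CPM in control, at 0.484, 0.515, 0.707, 1.95 and 0.852 in SCI and at 6.69, 0.993, 0.989, 3.65 and 1.05 in Rg1. SCI replicate 4 and Rg1 replicates 1 and 4 stood above the rest, and the remaining Rg1 libraries, at 0.989 to 1.05 CPM, were close to the highest of the remaining SCI libraries at 0.852. The log2 fold change of 1.57 ± 0.54 in Rg1 against SCI (adjusted p = 0.0256) was 0.67 with those 3 libraries left out (adjusted p = 0.056). The value of 1.85 ± 0.54 against control (adjusted p = 0.0146) was then 0.46 (adjusted p = 0.175). Leaving out Rg1 replicate 1 alone gave 0.88 and 1.17 and ended both calls, and so did leaving out SCI replicate 1, SCI replicate 2 or Rg1 replicate 4 in Rg1 against SCI. With the gene-length trend described below taken out, the Dleu2 call in Rg1 against SCI was lost as well.

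Mir22hg, host of miR-22, showed the same 3 libraries without passing the test. It was at 36.1, 35.4, 36.8, 38.6 and 37.2 CPM in control, 41.3, 33.8, 37.8, 57.9 and 32.9 in SCI and 69.2, 32.5, 30, 52.9 and 29 in Rg1. With those libraries left out together, its log2 fold change in Rg1 against SCI turned from 0.07 to -0.24 (adjusted p = 0.0236), and against control from 0.21 to -0.26 (adjusted p = 0.0157). Malat1 was high there too, as given with the nuclear body RNAs. A list of 8 heat shock genes, put together after the member values had been seen, summed to 2793 CPM in SCI replicate 4 against 2147 to 2400 in the other SCI libraries. In Rg1 replicates 1 and 4 it summed to 3505 and 2758, against 2136 to 2141 in replicates 2, 3 and 5. Lists of cell type markers also differed in some of these libraries. Fibroblast and pericyte markers summed to 852 and 1213 CPM in Rg1 replicates 1 and 4, against 2038 to 2688 in the other Rg1 libraries, and to 1956 in SCI replicate 4, against 2311 to 2778. Astrocyte markers summed to 6282 and 6545 CPM in Rg1 replicates 1 and 4, against 7626 to 9860. In SCI replicate 4 they did not stand apart, at 5772 CPM beside 5806 and 5783 in SCI replicates 1 and 5. The part of these lists in the member values was not tested.

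**Figure D2:**
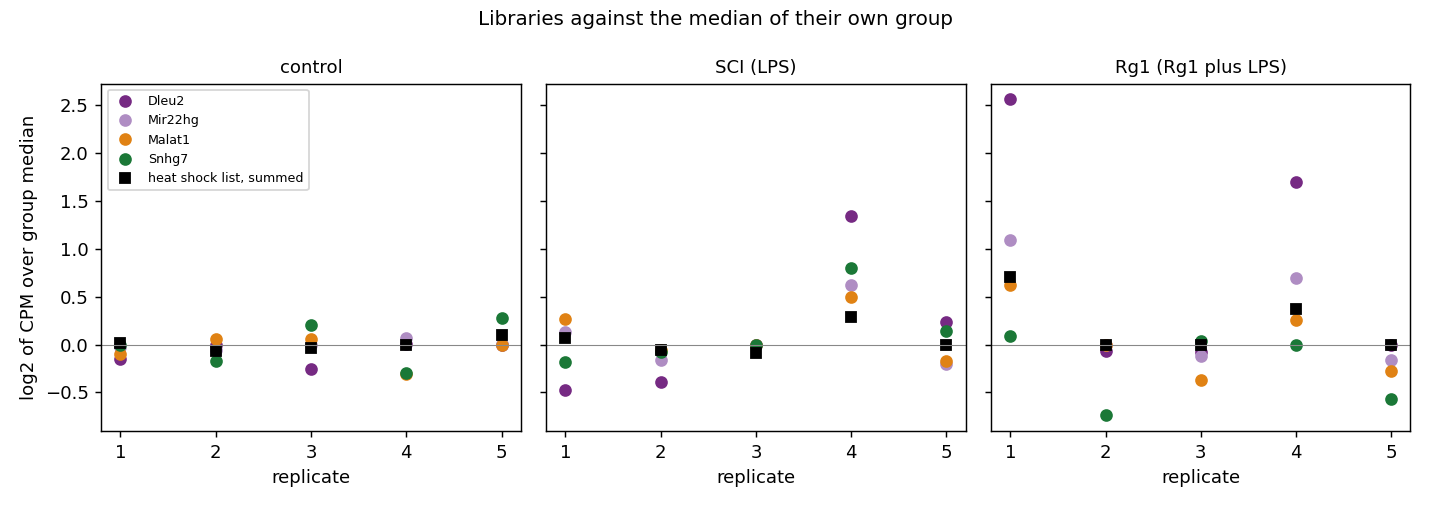
Each library's CPM over the median of its own group, on a log2 scale with 0.1 CPM added for single genes, for Dleu2, Mir22hg, Malat1, Snhg7 and the summed heat shock list, by replicate in the 3 groups. SCI replicate 4 and Rg1 replicates 1 and 4 lie above 0 for Dleu2, Mir22hg, Malat1 and the heat shock list.

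Mir17hg is known as the host of the growth-linked miR-17 to miR-92a cluster, of which its RefSeq span holds only miR-92a-1. It was at 0.187 to 0.561 CPM in control, 0.19 to 0.565 in SCI and 0 to 0.373 in Rg1. At these levels its log2 fold change in Rg1 against SCI, -0.96 ± 0.68, was not distinguishable from 0 (adjusted p = 0.264).

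The snoRNA hosts changed mainly in Rg1 against SCI. There the 13 that rose had log2 fold changes of 0.41 to 1.78, and the median over the 17 tested was 0.64. RefSeq places snoRNAs within the spans of 16 of the 18 hosts. It places none within those of Snhg10 and Snhg20, which are counted as hosts by their symbols. Gas5, known as growth arrest-specific, holds 8 snoRNAs at chr1:161034601-161038539 and was the member with the highest level per length. Its FPKM, the count divided by gene length and by library total, was 120 ± 7.89 in control, 105 ± 4.6 in SCI and 186 ± 9.9 in Rg1 (SD, n = 5 each). In CPM the libraries were at 73.3, 75.3, 72.7, 82.6 and 70.4 in control, 68.4, 65.8, 70.5, 61.6 and 71 in SCI and 108, 107, 103, 113 and 123 in Rg1. Every Rg1 library lay above every other, while control and SCI overlapped. The log2 fold change was 0.71 ± 0.06 in Rg1 against SCI (adjusted p = 1.08e-07) and 0.56 ± 0.06 in Rg1 against control (adjusted p = 4.01e-06). In SCI against control it was -0.15 ± 0.06 (adjusted p = 0.0878).

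Snhg11, Snhg20 and Snhg7 rose most among the snoRNA hosts in Rg1 against SCI. Snhg11 was at 0.982, 1.38, 2.43, 1.14 and 2.3 CPM in control, 1.45, 1.6, 2.06, 2.4 and 1.38 in SCI and 8.7, 4.72, 5.36, 7.29 and 4.53 in Rg1. All 5 Rg1 libraries lay above the other 10, with replicates 1 and 4 the highest. Its log2 fold change was 1.78 ± 0.27 (adjusted p = 5.49e-05), and without SCI replicate 4 and Rg1 replicates 1 and 4 it was 1.60 (adjusted p = 0.00043). Snhg11 is known as a neuronal transcript. Of 8 neuronal markers tested, the synaptic vesicle gene Syt1 rose in Rg1 against SCI, by 0.41 (adjusted p = 0.0343), and the neurofilament gene Nefm changed by -0.64 (adjusted p = 0.0078). Their list summed to 534 to 689 CPM in SCI and 484 to 699 in Rg1, and its part in the Snhg11 values was not tested.

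Snhg20, at chr11:117076783-117078955, has no annotated snoRNA in its span. It was at 2.69, 2.38, 3.26, 2.49 and 2.16 CPM in control, 2.72, 1.98, 2.86, 2.37 and 2.08 in SCI and 5.97, 7.15, 6.72, 8.94 and 8.34 in Rg1. No Rg1 library overlapped the other groups, and the log2 fold change of 1.63 ± 0.15 was a 3.09-fold rise over SCI (adjusted p = 3.69e-07). Snhg7, which holds 2 snoRNAs, was at 1.78, 1.57, 2.06, 1.43 and 2.19 CPM in control, 1.13, 1.22, 1.29, 2.31 and 1.43 in SCI and 4.69, 2.58, 4.52, 4.39 and 2.93 in Rg1. Here too Rg1 lay above the rest, although SCI replicate 4 came close to the lowest Rg1 library. The difference was 1.37 ± 0.23 against SCI (adjusted p = 0.000142) and 1.08 ± 0.23 against control (adjusted p = 0.00146).

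Snhg5 and Snhg8 rose with little spread between libraries. Snhg5, the host of U50 snoRNAs, was at 6.48, 6.64, 6.87, 7.93 and 6.14 CPM in control, 4.97, 5.4, 6.33, 5.65 and 6.94 in SCI and 11.8, 10.5, 11.9, 10.2 and 12 in Rg1. Snhg8, whose only annotated snoRNA lies in a gene span of 785 bases, was at 12, 10.9, 10.3, 10.5 and 10.8 CPM in control, 10.7, 10.6, 10.9, 9.77 and 12 in SCI and 16.3, 16.3, 17.9, 18.1 and 19.6 in Rg1. Neither gene's Rg1 libraries overlapped another group. Their log2 fold changes in Rg1 against SCI were 0.95 ± 0.11 for Snhg5 (adjusted p = 2.59e-06) and 0.71 ± 0.08 for Snhg8 (adjusted p = 2.64e-06).

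Snhg12, a host of 4 snoRNAs, was at 10.2, 11.1, 9.38, 13.1 and 10.5 CPM in control, 8.47, 9.65, 11.7, 8.67 and 9.29 in SCI and 12.6, 14.3, 14, 15.9 and 17.8 in Rg1. It rose by 0.64 ± 0.12 on the log2 scale against SCI without overlap (adjusted p = 0.000312), and Rg1 overlapped control. Snhg15 was at 10.3, 9.19, 10.6, 11.9 and 9.11 CPM in control, 9.55, 10.8, 9.5, 9.6 and 12.1 in SCI and 14.4, 12.1, 12.8, 15.2 and 15.8 in Rg1. Its lowest Rg1 library was only just above its highest SCI library, and the change was 0.45 ± 0.10 (adjusted p = 0.00232). Snhg3, a neighbour of Snhg12 on chromosome 4, was at 4.78, 5.37, 6.17, 4.33 and 5.91 CPM in control, 5.92, 5.64, 4.06, 5 and 6.19 in SCI and 6.33, 8.51, 7.66, 8.46 and 6.72 in Rg1. The Rg1 libraries were again just above the others, with a change of 0.49 ± 0.14 against SCI (adjusted p = 0.00824).

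Snhg1, the host with 8 snoRNAs at chr19:8723487-8726326, was called while its groups overlapped. It was at 14.2, 15.2, 14.1, 14.4 and 14.4 CPM in control, 17.3, 14.3, 11.8, 15.9 and 17.9 in SCI and 22.6, 20.7, 17.9, 19.5 and 21.9 in Rg1. The SCI libraries spread more widely than the control libraries, and only the highest SCI value reached the lowest of Rg1. The change was 0.41 ± 0.10 against SCI (adjusted p = 0.00326) and 0.51 ± 0.10 against control (adjusted p = 0.000962). Snhg10, which shares its start region with Glrx5, was at 2.14, 1.52, 1.39, 1.23 and 1.35 CPM in control, 0.995, 0.895, 1.32, 1.07 and 0.802 in SCI and 1.16, 1.59, 2.05, 1.44 and 2.43 in Rg1. It overlapped in all comparisons, and its Rg1 against SCI value was 0.77 ± 0.23 (adjusted p = 0.0128).

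Snhg18 was at 18.2, 21.7, 20.7, 21.6 and 18.9 CPM in control, 14.4, 17.1, 18.9, 13.8 and 19.7 in SCI and 13.9, 24.4, 24.7, 18.6 and 30.8 in Rg1. The Rg1 libraries ran from below all SCI libraries but 1 to above all of them. Its change of 0.42 ± 0.17 (adjusted p = 0.0482) lost its call in 9 of the 15 fits that left out 1 library. Without SCI replicate 4 and Rg1 replicates 1 and 4 it was 0.62 (adjusted p = 0.000649), and 0.41 against control (adjusted p = 0.0101). The call against control arose in that setting, whose libraries were chosen after the values were seen. Snhg14, a very long imprinted transcript at chr7:59272737-60450177 with 206 annotated snoRNAs, was at 0.749, 1.35, 1.18, 1.4 and 1.15 CPM in control, 1.34, 0.976, 1.04, 0.903 and 0.651 in SCI and 1.55, 2.28, 1.9, 1.62 and 0.882 in Rg1. It runs antisense to Ube3a, the ubiquitin ligase gene that the same transcript is known to silence in neurons. Snhg14 rose by 0.74 ± 0.26 in Rg1 against SCI (adjusted p = 0.0296), with overlap, and Ube3a changed by -0.64 ± 0.15 (adjusted p = 0.00212). The Snhg14 call was lost when any of SCI replicates 2, 4 or 5 or Rg1 replicates 2 or 3 was left out, and without SCI replicate 4 and Rg1 replicates 1 and 4 together (0.76, adjusted p = 0.0828). The strand setting of the counting is not given in the sources used here, so reads of these antisense partners cannot be told apart.

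With Rian counted as imprinted, Snhg16 was the only snoRNA host called in SCI against control. It was at 2.53, 2.11, 2.22, 3.04 and 3.31 CPM in control, 4.06, 3.12, 3.87, 4.12 and 4.38 in SCI and 3.41, 4.59, 2.74, 3.49 and 3.15 in Rg1. SCI lay mostly above control with some overlap, by 0.57 ± 0.17 (adjusted p = 0.0212), a call that leaving out control replicate 2, control replicate 3 or SCI replicate 5 ended. Between Rg1 and SCI the value was -0.17 ± 0.17 (adjusted p = 0.423). Snhg4, Snhg6 and Snhg17 passed in no comparison. Snhg6 came nearest, at 0.42 ± 0.17 in Rg1 against SCI (adjusted p = 0.0503), from 3.16 to 5.64 CPM in SCI and 4.38 to 7.34 in Rg1. Snhg4 was at 0.768 to 2.51 CPM and Snhg17 at 6.13 to 10.5 CPM over all libraries.

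**Figure D3:**
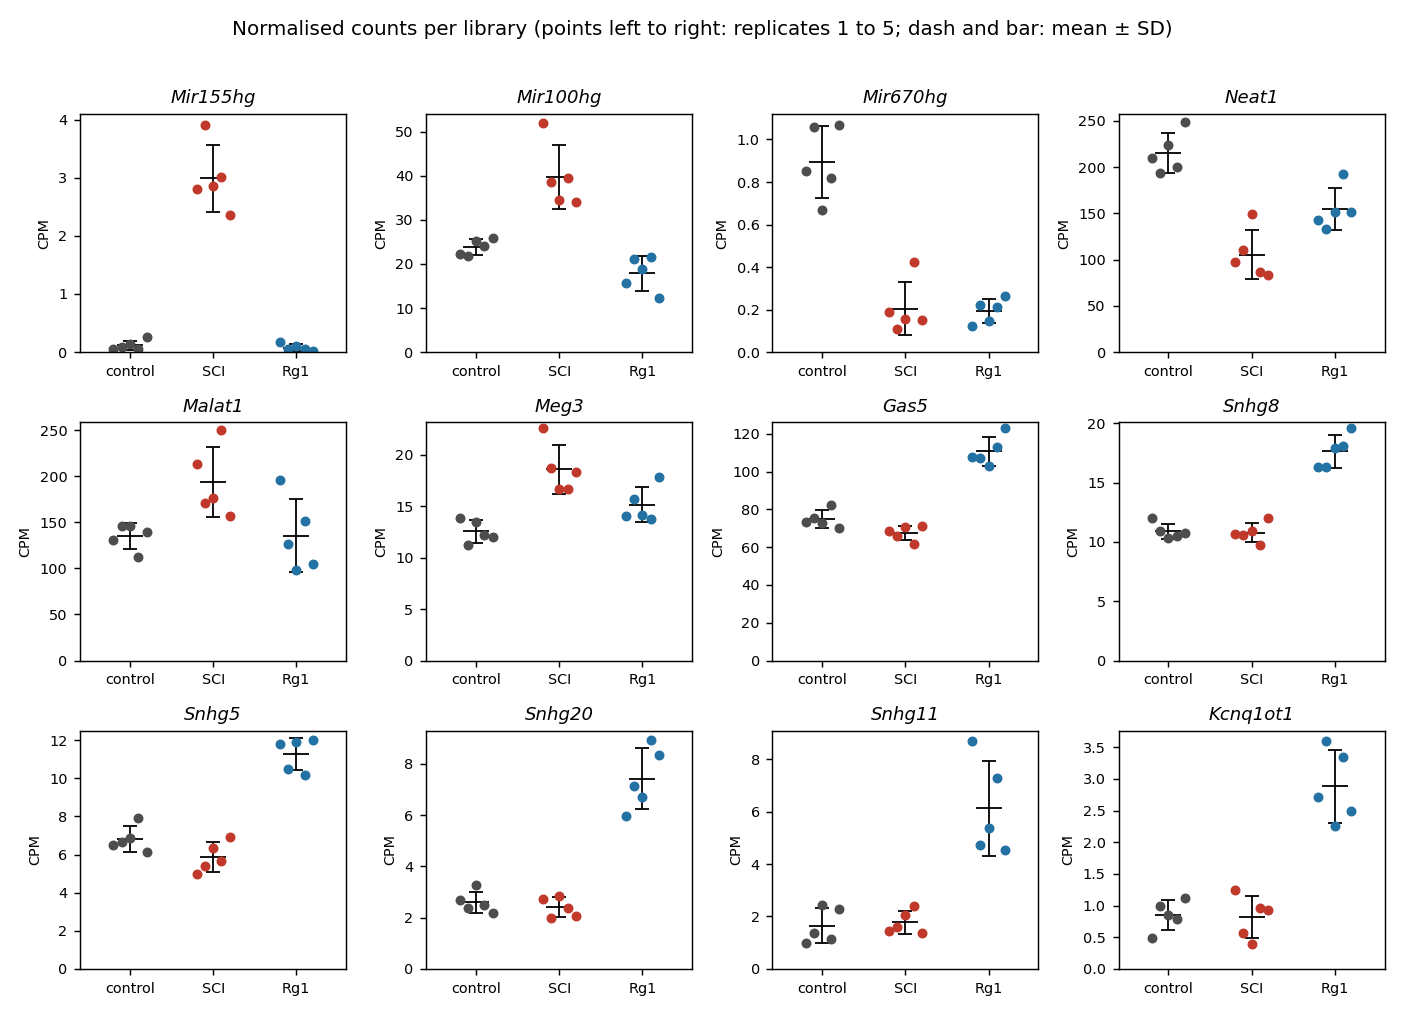
CPM of 12 members in each library, with the mean ± SD of 5 libraries per group; points run from replicate 1 to 5 within a group, and each panel has its own scale from 0. Mir155hg and Mir100hg are highest in SCI, Neat1 and Mir670hg are highest in control, and Gas5, Snhg8, Snhg5, Snhg20, Snhg11 and Kcnq1ot1 are highest in Rg1.

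The snoRNA hosts are short, and short genes as a class were higher in Rg1 than in SCI. Of the 17 hosts tested, 14 were among the shortest 25% of all genes, with at most 2176 bases in the length behind the deposited FPKM. Across those short genes the median log2 fold change in Rg1 against SCI was 0.24 and 39.1% of genes were called higher, against a median of -0.19 among the longest 25%, of at least 6037 bases. Among the 14 short hosts, 11 were called higher. When a smooth length trend per library was taken out, 8 of the 17 hosts still passed, all higher, and their median log2 fold change was 0.27. The 8 were Gas5, Snhg5, Snhg7, Snhg8, Snhg11, Snhg12, Snhg14 and Snhg20. Snhg1, Snhg3, Snhg10, Snhg15 and Snhg18 lost the call, with values of -0.00079, 0.065, 0.37, 0.074 and 0.2. With a replicate block added to that fit, Snhg17 was called lower, at -0.30 (adjusted p = 0.042). In Rg1 against control 10 hosts were called as fitted and 7 with the length trend taken out. Snhg1, Snhg3, Snhg12 and Snhg15 lost that call, with values of 0.20, 0.18, 0.17 and 0.17, and Snhg14 gained one at 0.75 (adjusted p = 0.0315). Of the miRNA hosts, Mir100hg lost its call against control (-0.28, adjusted p = 0.15). The part of length in these differences was not tested beyond that fit.

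**Figure D4:**
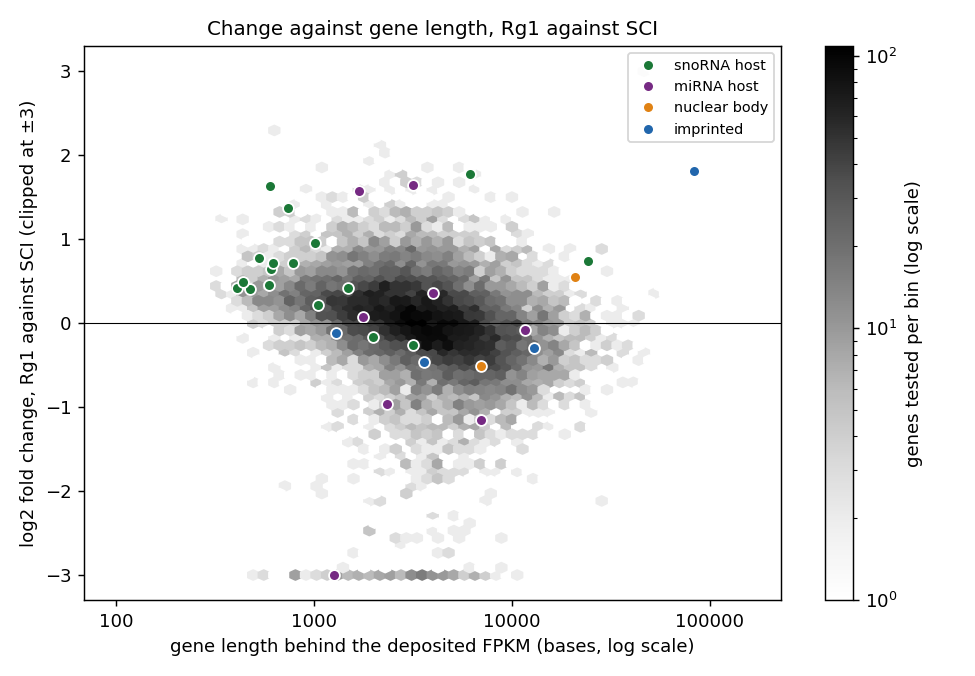
Log2 fold change in Rg1 against SCI (vertical, clipped at 3 either way) by gene length on a log scale, with all genes tested as grey bins and the 31 members as coloured points. The grey cloud slopes from above 0 at short lengths to below 0 at long ones, and Snhg7, Snhg20, Snhg11 and Kcnq1ot1 lie above it while Mir155hg, drawn at the lower limit, lies below.

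The nuclear body RNAs moved in opposite directions in SCI against control and in Rg1 against SCI. Both the long form of Neat1 and the mature end of Malat1 are known to lack a usual poly(A) tail, and how far the selection of polyadenylated RNA lowered their counts was not tested. Neat1 was at 210, 194, 224, 200 and 249 CPM in control, 98, 110, 149, 87.1 and 83.5 in SCI and 143, 133, 152, 193 and 152 in Rg1. Control lay above both other groups without overlap, and SCI and Rg1 overlapped through SCI replicate 3. The change was -1.03 ± 0.14 in SCI against control (adjusted p = 5.15e-05), 0.55 ± 0.14 in Rg1 against SCI (adjusted p = 0.00439) and -0.48 ± 0.14 in Rg1 against control (adjusted p = 0.0139). With the length trend taken out, the last was -0.23 (adjusted p = 0.265).

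Malat1 was at 131, 146, 146, 113 and 140 CPM in control, 214, 171, 177, 251 and 157 in SCI and 196, 127, 98.5, 152 and 105 in Rg1. SCI lay above control throughout, and Rg1 overlapped both. Its change of 0.52 ± 0.17 in SCI against control (adjusted p = 0.0383) lost the call when any control library, SCI replicate 1, SCI replicate 4 or Rg1 replicate 2 was left out. In Rg1 against SCI the value was -0.51 ± 0.17 (adjusted p = 0.0229), which lost the call without SCI replicate 1, SCI replicate 4 or Rg1 replicate 2, 3 or 5. That call was also lost with the length trend taken out. With library size scaling alone, or with no low-count filter, Malat1 was called in neither of these comparisons. Against control its value was 0.01 ± 0.17 (adjusted p = 0.982), and -0.29 (adjusted p = 0.062) without SCI replicate 4 and Rg1 replicates 1 and 4 together. Without those 3 the other values were 0.41 in SCI against control (adjusted p = 0.00941) and -0.69 in Rg1 against SCI (adjusted p = 0.000366).

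Of the partners of these RNAs, 10 of 12 nuclear speckle proteins rose and none fell in SCI against control, with a median log2 fold change of 0.28. In Rg1 against SCI none rose and 7 fell, with a median of -0.26. Among all genes tested, 13.8% rose in SCI against control and 23.2% fell in Rg1 against SCI. The longest 25% of genes had a median of -0.19 in Rg1 against SCI, and the part of gene length in these lists was not tested. Srrm2, a structural core protein of speckles, was at 183 CPM on average in control, 266 in SCI and 181 in Rg1. Its log2 fold change was 0.54 in SCI against control (adjusted p = 1.97e-06) and -0.55 in Rg1 against SCI (adjusted p = 7.98e-07). Son, its partner in the speckle core, changed by 0.23 and -0.64 (adjusted p = 0.00365 and 4.6e-08). Of 12 paraspeckle proteins 5 rose and none fell in SCI against control, and 1 rose and 5 fell in Rg1 against SCI. Sfpq, which binds Neat1, changed by 0.28 (adjusted p = 0.00338) and -0.26 (adjusted p = 0.00259), the opposite signs to Neat1.

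Among the imprinted transcripts, Kcnq1ot1 rose in Rg1 and Meg3 and Rian rose in SCI. Kcnq1ot1, at chr7:143213111-143296547, is the antisense RNA that silences its neighbours on the paternal chromosome. It was at 0.491, 1, 0.855, 0.79 and 1.12 CPM in control, 1.24, 0.569, 0.399, 0.96 and 0.927 in SCI and 2.71, 3.6, 2.25, 3.35 and 2.5 in Rg1. Control and SCI overlapped, and every Rg1 library lay above both. The log2 fold change was 1.81 ± 0.28 in Rg1 against SCI (adjusted p = 7.36e-05) and 1.76 ± 0.28 against control (adjusted p = 0.000154), the highest estimate of any member against SCI. With 83437 bases in the length behind the FPKM it is also the longest member by that length. Its control FPKM, 0.0101 ± 0.00282, was the lowest of the members tested. In Rg1 its FPKM was 0.036 ± 0.00709, above the 0.0172 of Mir670hg (SD, n = 5 each). It lies within Kcnq1 on the other strand, and reads of both cannot be told apart without the strand setting.

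Meg3, a maternally expressed RNA often studied as a growth suppressor, was at 13.9, 11.2, 13.5, 12.2 and 12 CPM in control, 22.6, 18.7, 16.7, 16.7 and 18.3 in SCI and 14.1, 15.7, 14.2, 13.8 and 17.9 in Rg1. SCI lay above control in every library, and Rg1 overlapped both. It rose by 0.57 ± 0.10 in SCI against control (adjusted p = 0.00058). In Rg1 against SCI the value was -0.30 ± 0.10 (adjusted p = 0.0236), a call that ended without SCI replicate 1, Rg1 replicate 3 or Rg1 replicate 4, and with the length trend taken out (-0.057, adjusted p = 0.706). Without SCI replicate 4 and Rg1 replicates 1 and 4 it was -0.25 (adjusted p = 0.0902). Against control it was 0.27 ± 0.10 (adjusted p = 0.0455), and leaving out any of 6 libraries (control replicates 2, 4 and 5, SCI replicate 2 and Rg1 replicates 2 and 5) ended that call.

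Rian, downstream in the same domain and itself a snoRNA host, was at 38.4, 34.4, 38.7, 34 and 35.7 CPM in control, 59.5, 45.4, 31.1, 50.2 and 61.7 in SCI and 32.5, 39.4, 29.5, 35.4 and 43.7 in Rg1. SCI held both the highest values and, in replicate 3, a value below every control library. Its change was 0.45 ± 0.15 in SCI against control (adjusted p = 0.0373) and -0.46 ± 0.15 in Rg1 against SCI (adjusted p = 0.0194). The first call was lost without any control library or without SCI replicate 1, 4 or 5, and the second without SCI replicate 1, SCI replicate 5 or Rg1 replicate 3. Both were lost without SCI replicate 4 and Rg1 replicates 1 and 4 together, at 0.44 (adjusted p = 0.077) and -0.38 (adjusted p = 0.131). Mirg, a miRNA host farther along, was at 1.11, 0.65, 0.668, 0.878 and 2.13 CPM in control, 1.05, 0.949, 1.14, 1.24 and 1.33 in SCI and 1.45, 1.04, 0.692, 0.931 and 1.12 in Rg1. It passed in no comparison, with log2 fold changes of 0.07 ± 0.31, -0.12 ± 0.30 and -0.05 ± 0.30 in the order SCI against control, Rg1 against SCI and Rg1 against control. Dlk1, the paternally expressed gene of this domain, fell by 0.71 on the log2 scale in SCI against control (adjusted p = 0.00438), the only call among 9 tested imprinted neighbours there. In Rg1 against SCI 1 of the 9 rose, Wdr25 at 0.69 (adjusted p = 7.4e-05), and none fell.

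Genes that share a start region with a host did not all move with it. Zbtb37, a zinc finger gene that starts 248 bases from Gas5 on the other strand, changed by -0.44 ± 0.10 in Rg1 against SCI (adjusted p = 0.00127), where Gas5 rose. Sema5a, a guidance cue gene whose start is 151 bases from that of Snhg18, changed by -0.37 ± 0.14 (adjusted p = 0.0443). Glrx5, an iron-sulfur cluster gene 339 bases from Snhg10, rose by 0.22 ± 0.08 (adjusted p = 0.0416), as Snhg10 did. Trim13, which overlaps Dleu2, was at 0.07 ± 0.10 (adjusted p = 0.597). Some of these genes also overlap their host, so that reads in the overlap may be counted for either.

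Genes of the snoRNA pathway outside the members were counted beside them, and no list was tested as a set. Of all genes tested, 13.8% were called higher and 9.82% lower in SCI against control. The shares in Rg1 against SCI were 22.2% higher and 23.2% lower. Of 15 proteins that bind or assemble snoRNAs, 3 rose and none fell in SCI against control, and 2 rose and 4 fell in Rg1 against SCI. Nop56, a core protein of box C/D particles, rose by 0.50 in SCI against control (adjusted p = 0.000848), and Nop58, its partner, changed by -0.41 in Rg1 against SCI (adjusted p = 0.00222). Nop10, of box H/ACA particles, rose by 0.35 in Rg1 against SCI (adjusted p = 0.00168). Of 14 nonsense-mediated decay genes, 1 rose and none fell in SCI against control. In Rg1 against SCI 3 of these rose and 5 fell. Smg1, the kinase of that pathway, and Smg8, its regulator, changed by -0.59 and -0.72 (adjusted p = 0.00232 and 2.88e-05), while Upf3b rose by 0.62 (adjusted p = 0.001). Among 12 other messages known for a TOP start, 4 rose and 1 fell in Rg1 against SCI. Fau, a ribosomal protein precursor, rose by 0.30 (adjusted p = 0.000831), and Pabpc1, the poly(A)-binding protein, changed by -0.37 (adjusted p = 0.000736).

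Among all genes tested, 23.7% were called in SCI against control and 45.4% in Rg1 against SCI. Of 17 other noncoding RNAs tested, 2 fell and none rose in SCI against control, and 8 rose and 3 fell in Rg1 against SCI. Zfas1, a further snoRNA host, rose by 0.68 ± 0.11 (adjusted p = 7.71e-05), from 15.1 to 19.2 CPM in SCI to 22.8 to 31.6 in Rg1. Pantr1 and Jpx rose too, by 0.79 and 1.28 (adjusted p = 7.96e-05 and 0.00322). The 3 that fell were Norad, Tug1 and Peg13, at -0.33, -0.44 and -0.47 (adjusted p = 0.00293, 0.00496 and 0.0051). Whether hosting a snoRNA goes with the direction of change was not tested. Of 13 genes of miRNA processing 4 rose and 2 fell in SCI against control, and 3 rose and 5 fell in Rg1 against SCI. Ago2, the slicing Argonaute, changed by 0.41 (adjusted p = 0.00722) and -0.85 (adjusted p = 4.53e-06), and Dicer1, which cuts the hairpin loop, by -0.62 in Rg1 against SCI (adjusted p = 1.73e-05).

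Per gene length, the members spanned a wide range of levels, and 12 of the 35 had a control mean above 10 FPKM. Gas5 was first at 120 ± 7.89 FPKM, followed by Snhg1 at 30.2 ± 1.02, Mir22hg at 20.7 ± 0.67 and Malat1 at 19.3 ± 2.04 (SD, n = 5 each). Mir22hg and Malat1 overlapped in that order. At the low end, Dleu2, Snhg11, Mir99ahg, Mir17hg, Mir155hg, Mir670hg, Snhg14 and Kcnq1ot1 all had control means under 0.5 FPKM.

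**Figure D5:**
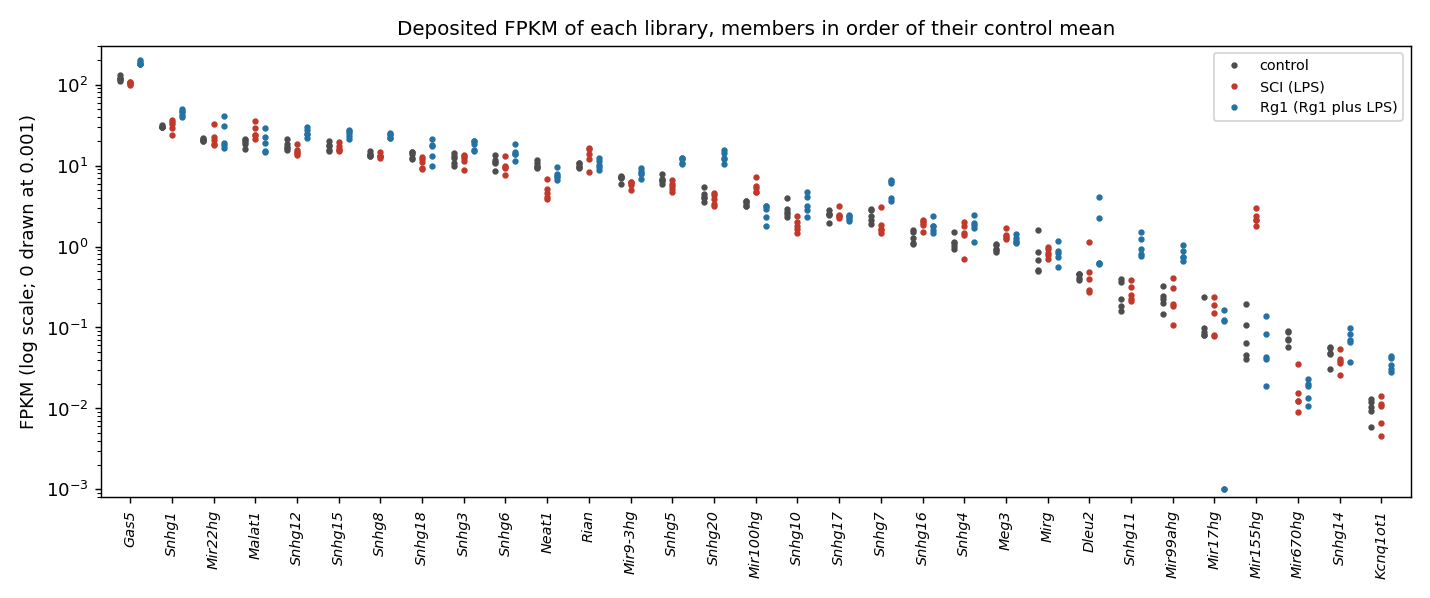
Deposited FPKM of the 31 members tested in each of the 15 libraries, on a log scale, in order of the control mean; a value of 0 is drawn at 0.001. Gas5 stands highest in all groups, and Mir155hg in SCI lies far above its control and Rg1 values.

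Too few counts for a test were found for 4 members. Snhg9 held 7 counts over the 5 control libraries, 15 over SCI and 21 over Rg1. Mir124-2hg, a host of the neuronal miR-124, held 8, 0 and 5. Mir124a-1hg, another host of miR-124, held 1 count in all, in an SCI library, and Mirc35hg, whose span holds the sensory miR-183 cluster, held 4, also in a single SCI library. A total of 0 in a group allows up to 3 counts by counting error alone, so at this depth a difference between groups was not detectable for Mir124a-1hg and Mirc35hg.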

How the data were processed

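TRIzol extraction and a VAHTS Universal V6 library kit were used, per the labels' protocols. For every library the authors deposited unnormalised counts by symbol, and FPKM. Builds GRCm38 and mm10 are named in the submitters' processing notes. The aligner, counter, annotation and use of strand are, in the sources used here, not given. Deposited FPKM equalled count over gene length and total count to a relative deviation of 7.22e-10, which gave the lengths used; 37 FPKM rows with damaged symbols, none of them a member, were left out. The treatment field of the Rg1 group varies by library, and the titles and design text were followed.

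Counts were analysed with edgeR 4.0.16 in R 4.3.3: filterByExpr left 15362 genes, TMM scaling, and a robust quasi-likelihood fit of all 15 libraries with the group as its term, tested on simulated data. Alternatives used DESeq2 1.42.0, limma voom 3.58.1, other scaling, no filter, 2 groups alone, a replicate block, length offsets and each library left out. Coordinates, miRNAs and starts are from RefSeq GRCm38.p6, in which all 35 members matched. Values in every library are given for the 8 members chosen by name and for those called in any comparison, and of each list up to 3 genes that rose and 3 that fell in order of adjusted p. Mir22hg was added after its values were seen. The members and lists were chosen with earlier results of these data known. Intervals were not computed, and a floor of 3 counts covers counting error only.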

Additional observations from a re-analysis of the deposited data

Results flagged for a closer look

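Of 93 groups of 5 member values, 6 held a library whose gap to the others exceeded 0.71 of the group's range, and chance gives about 1 in 20. Dleu2 was at 1.95 CPM in SCI replicate 4, against 0.484 to 0.852 in the other SCI libraries. Mir670hg was at 0.423 CPM in the same library, against 0.108 to 0.188, and Snhg7 at 2.31 CPM, against 1.13 to 1.43. Snhg17 was at 10.5 CPM in SCI replicate 1, against 7.41 to 8.02. In control, Mir17hg was at 0.561 CPM in replicate 5, against 0.187 to 0.232, and Mir9-3hg was lowest in replicate 2 at 23.7 CPM, against 28.7 to 29.4.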

How the results depend on the processing

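Over 25 alternative settings, 5 of 8 member calls in SCI against control, 13 of 23 in Rg1 against SCI and 9 of 17 in Rg1 against control were kept with their direction wherever the member was tested. Leaving out 1 library gave 5 to 9 calls in SCI against control, of which 3 to 6 higher, and 2 to 5 lower calls in Rg1 against SCI. Library size scaling alone gave 2 lower calls there. Gene-length offsets gave 15 calls in Rg1 against SCI, 3 of them lower, and 1 lower call in Rg1 against control. With length offsets the values of Snhg1, Snhg4 and Snhg6 in Rg1 against SCI turned to -0.00079, -0.061 and -0.016, and those of Snhg10, Snhg18 and Snhg6 in Rg1 against control to -0.13, -0.029 and -0.04. Same-numbered libraries correlated at 0.168, 0.0499, 0.423, 0.366 and 0.424 between Rg1 and SCI, where replicates 3, 4 and 5 were closest to their own number and replicates 1 and 2 were not, and at -0.222 to 0.155 in the pairs with control. As not every pair was over 0.1, the numbers were not taken to pair the samples, and the labels used here state no pairing. A replicate block added Snhg6 in Rg1 against SCI (19 higher, 5 lower) and changed no other member call. Length offsets with the replicate block, chosen after seeing the data, called Snhg17 lower in Rg1 against SCI (-0.30), and gave 11 calls and 1 lower in Rg1 against control, values of -0.046 for Snhg4 and -0.0046 for Snhg6 in Rg1 against SCI, and -0.016, -0.13, -0.065 and -0.033 for Mir22hg, Snhg10, Snhg18 and Snhg6 in Rg1 against control. With SCI replicate 4 and Rg1 replicates 1 and 4 left out together, also chosen after seeing the data, Rg1 against SCI was -0.24 for Mir22hg and 0.50 for Mir670hg, and Rg1 against control -0.29 for Malat1 and -0.26 for Mir22hg. Leaving out single libraries, Rg1 against SCI ranged from -0.18 to 0.23 for Mir22hg and from -0.24 to 0.36 for Mir670hg, and Rg1 against control from -0.03 to 0.34 for Mir22hg and from -0.20 to 0.34 for Mirg. The cause was not tested. Members under 1 CPM rest on few counts per library.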
